A study of Mus musculus with 5 samples.

Results

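The genes described here are the receptors and coactivators that carry the metabolic programme of the postnatal heart: the peroxisome proliferator-activated receptor Ppara, the PGC-1 coactivators Ppargc1a and Ppargc1b, the estrogen-related receptors Esrra, Esrrb and Esrrg, the retinoid X receptors Rxra and Rxrg, and the thyroid hormone receptors Thra and Thrb. They were listed by receptor family, without every member of each family, and are 10 of the 49671 genes in the count table. All 10 had at least 10 counts in at least 2 pools and were tested. RNA was sequenced from whole hearts of C57BL6/J mice at postnatal day 2 (PN2), to compare CharmeWT animals with CharmeKO animals, in which an inserted PolyA signal disrupts the locus of Charme, a long noncoding RNA of heart and skeletal muscle. Littermates were pooled by genotype, and their sexes were not fixed. The CharmeWT group holds 3 pools of 9 hearts and the CharmeKO group 2 pools of 3 hearts, and the effect of pool size cannot be told apart from that of genotype.

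Around birth the heart turns from glucose and lactate to fatty acids, and mitochondria multiply. PPARα binds fatty acids and, as a heterodimer with an RXR, switches on genes of fatty acid uptake and oxidation. The estrogen-related receptors are orphan receptors of oxidative phosphorylation genes, and PGC-1α and PGC-1β, which do not bind DNA themselves, coactivate both families. Thyroid hormone receptors also pair with RXR, and rising thyroid hormone after birth is known to drive the change from the Myh7 to the Myh6 myosin heavy chain in mice.

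The pools held 16721055 to 21646378 counts each, and Charme itself had 810, 183 and 276 counts in CharmeWT pools 1 to 3 against 57 and 79 in CharmeKO pools 1 and 2. The 8 cardiomyocyte markers summed to 17100 to 21100 CPM (counts scaled to a common library size) in CharmeWT pools and to 22000 and 16700 CPM in CharmeKO pools, so the tissue label held in all 5 pools. The CharmeKO pools stood apart in other ways. In CharmeKO pool 1 mitochondrial genes took 21.1% of counts, against 9.68% to 11.1% in the other pools, and genes of high GC content (at least 54.5%) had a median deviation of −0.381 from the mean of all pools on the log2 scale, while genes of low GC content (at most 44.9%) had 0.380. In CharmeKO pool 2 the 8 salivary gland markers took 2.56% of counts. They summed to 24800 CPM there and to 327 CPM in CharmeKO pool 1, against 0.0486 to 0.202 CPM in CharmeWT pools. The 7 adipocyte markers reached 1060 CPM in CharmeKO pool 2, against 28.4 to 40.9 CPM in CharmeWT pools and 70.3 CPM in CharmeKO pool 1. In both CharmeKO pools the 7 erythroid markers were high, at 2280 and 1620 CPM against 870 to 1250 CPM in CharmeWT pools, with 6 of the 7 above every CharmeWT pool and 3 called higher. The part of these differences in the results was not tested.

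The regulatory sequence at the start of these genes was read from RefSeq windows on GRCm38.p6 that run from 250 bases before a transcript start to 50 bases after it. Windows matched 8 of the 10 genes, 15 windows in all. They were searched on both strands for AGGTCA, the hexamer that a nuclear receptor's DNA-binding domain contacts. It was found in 3 of the 15 windows, and in 16.3% of all 32851 windows of that length. Windows are shown for Rxra and Esrra, whose CharmeKO values both lay below the CharmeWT values, and for Thrb, the partner isotype of Thra. Each is written along its gene's strand with matches in capitals, where TGACCT is a match on the opposite strand.

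Rxra, chr2:27676951-27677250, + strand: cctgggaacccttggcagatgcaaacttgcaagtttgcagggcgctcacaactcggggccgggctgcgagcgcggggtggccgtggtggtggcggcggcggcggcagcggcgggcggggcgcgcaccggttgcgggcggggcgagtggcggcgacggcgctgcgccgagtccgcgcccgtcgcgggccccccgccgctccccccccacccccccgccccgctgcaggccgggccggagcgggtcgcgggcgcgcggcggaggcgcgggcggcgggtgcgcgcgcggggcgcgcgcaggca

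Rxra, chr2:27709042-27709341, + strand: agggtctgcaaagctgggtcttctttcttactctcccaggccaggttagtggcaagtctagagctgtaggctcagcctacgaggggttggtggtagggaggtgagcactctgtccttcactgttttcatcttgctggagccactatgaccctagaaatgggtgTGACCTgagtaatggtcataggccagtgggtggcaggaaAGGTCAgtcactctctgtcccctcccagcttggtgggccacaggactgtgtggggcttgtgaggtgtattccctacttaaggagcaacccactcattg

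Esrra, chr19:6921759-6922058, − strand: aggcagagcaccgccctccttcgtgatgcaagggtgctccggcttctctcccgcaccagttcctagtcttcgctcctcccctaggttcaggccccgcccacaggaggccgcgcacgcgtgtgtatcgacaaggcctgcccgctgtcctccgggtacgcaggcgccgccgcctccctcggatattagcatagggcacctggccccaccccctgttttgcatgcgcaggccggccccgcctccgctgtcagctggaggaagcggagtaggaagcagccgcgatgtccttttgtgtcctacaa

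Thrb, chr14:17660710-17661009, + strand: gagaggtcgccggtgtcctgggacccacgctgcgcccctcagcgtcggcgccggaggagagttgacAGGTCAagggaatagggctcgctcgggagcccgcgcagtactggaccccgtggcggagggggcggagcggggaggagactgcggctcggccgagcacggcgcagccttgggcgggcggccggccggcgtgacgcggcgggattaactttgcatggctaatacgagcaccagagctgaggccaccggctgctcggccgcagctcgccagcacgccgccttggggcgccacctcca

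The first Rxra window was 83.0% G and C and held no match, while the window of the downstream start was 54.3% G and C and held 2, beginning 48 and 87 bases before the start. The printed Thrb window, 72.7% G and C, held 1 match 184 bases before the start. The other Thrb window, not printed, was 46.0% G and C and held none. The Esrra window, 66.0% G and C, also held none. The third window with a match was the second Rxrg window, 88 bases before its start. The longer motif TNAAGGTCA, known for estrogen-related receptors that bind as monomers and containing the same hexamer, was in 0 of the 15 windows and in 1.28% of all windows. Direct repeats of the hexamer with 1 base between them, the PPAR and RXR arrangement, or with 4 bases, that of thyroid hormone receptor and RXR, were in 0 of the 15 and in 0.0396% and 0.0152% of all windows.

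In CharmeWT hearts the 10 genes spanned a wide range of levels. Levels are given as FPKM, fragments scaled by gene length and library size, which allows genes to be set beside each other. Esrra, at 61.9 ± 2.97 FPKM (SD, n = 3), and Thra, at 60.4 ± 1.41, led, and their ranges over the pools overlapped. Rxra followed at 15.9 ± 1.57 FPKM and overlapped with Ppargc1a at 13.5 ± 1.63. Ppargc1b at 5.45 ± 0.480 and Esrrg at 5.34 ± 0.569 overlapped, as did Ppara at 2.49 ± 0.801 and Esrrb at 2.17 ± 0.309. Rxrg was lower at 1.44 ± 0.0990 FPKM, and Thrb was lowest at 0.252 ± 0.0714. The neighbours Thra and Rxra, Ppargc1a and Ppargc1b, Esrrg and Ppara, Esrrb and Rxrg, and Rxrg and Thrb did not overlap. The place of Esrra depends on its assumed length of 2539 bases in the deposited FPKM, since with the exon length of 4387 bases in GENCODE M21 its CharmeWT level was 35.8 FPKM, below that of Thra.

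**Figure D1:**
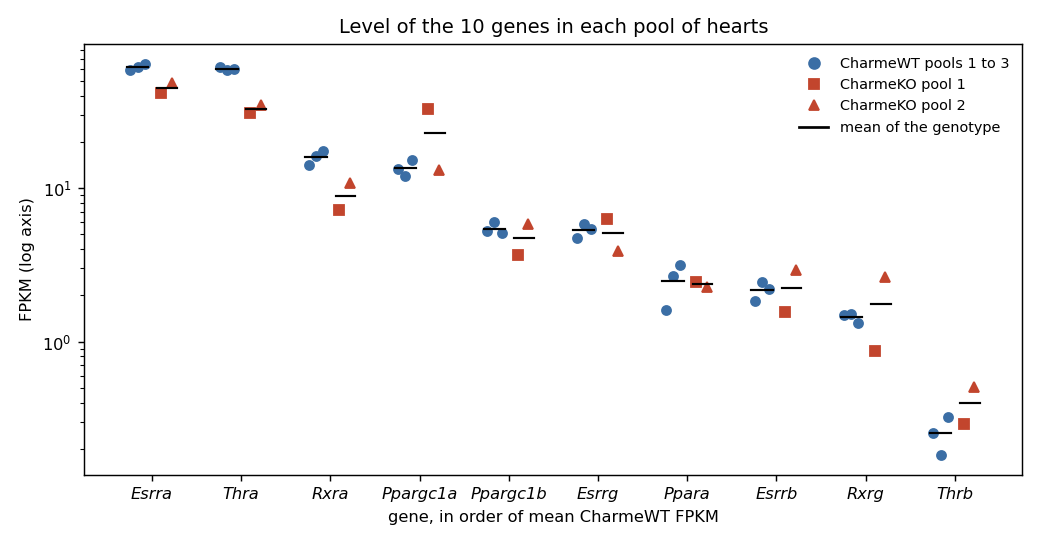
Level of each gene (FPKM, log axis) in each of the 5 pools, with the genes in order of their mean CharmeWT level and bars for the mean of each genotype. Thra, Rxra and Esrra are the genes whose 2 CharmeKO pools both lie below all 3 CharmeWT pools, and CharmeKO pool 1 stands far above the other pools for Ppargc1a.

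Within families, a single isotype made up most of the RNA in some cases and not in others. Thra was 99.6% ± 0.114 (SD, n = 3 pools) of the summed FPKM of both thyroid hormone receptors in CharmeWT hearts, and Esrra 89.2% ± 0.992 of the 3 estrogen-related receptors. The Esrra share rests on the length of 2539 bases and is smaller with the M21 length, which puts Esrra at 35.8 FPKM. Among retinoid X receptors Rxra was 41.6% ± 2.71 and Rxrg 3.76% ± 0.377, with the rest in Rxrb, the ubiquitous isotype, at 54.6% ± 2.44. Ppara had the lowest mean of the PPARs, at 22.3% ± 4.74, below Ppard at 52.7% ± 2.47 and overlapping with Pparg at 25% ± 6.99. Ppargc1a was 61.0% ± 4.42 of the PGC-1 family, Ppargc1b 24.8% ± 3.24 and Pprc1, the third PGC-1 family coactivator, 14.3% ± 1.33.

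CharmeKO hearts had less Thra RNA, and Thra was the only one of the 10 genes to pass the test. A call required an adjusted p below 0.1 plus 1 FPKM or more as the mean of either genotype. By the quasi-likelihood test of edgeR, adjusted over 14880 genes by the Benjamini-Hochberg method, 1 of the 10 was called lower, where 0.524% of all genes were, and 0 were called higher, where 1.53% of all genes were. In either direction 2.05% of all genes were called. At an unadjusted p under 0.05, 3 were lower (Thra, Rxra and Esrra) and 1 was higher (Ppargc1a), where 8.01% of all genes were lower and 10.6% higher at that level. The likelihood ratio test and DESeq2 each called 2 lower, Thra and Rxra, and 0 higher, with 2.37% and 3.21% of all genes called lower. Both CharmeKO pools lay below every CharmeWT pool in 3 of the 10 genes, where 18.2% of all genes did, and above every one in 0 of the 10, where 17.8% did. The median log2 fold change, CharmeKO over CharmeWT, was −0.07 over the 10 genes and 0.02 over all genes tested. In whole hearts, fewer cells of a type and less RNA per cell cannot be told apart.

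**Figure D2:**
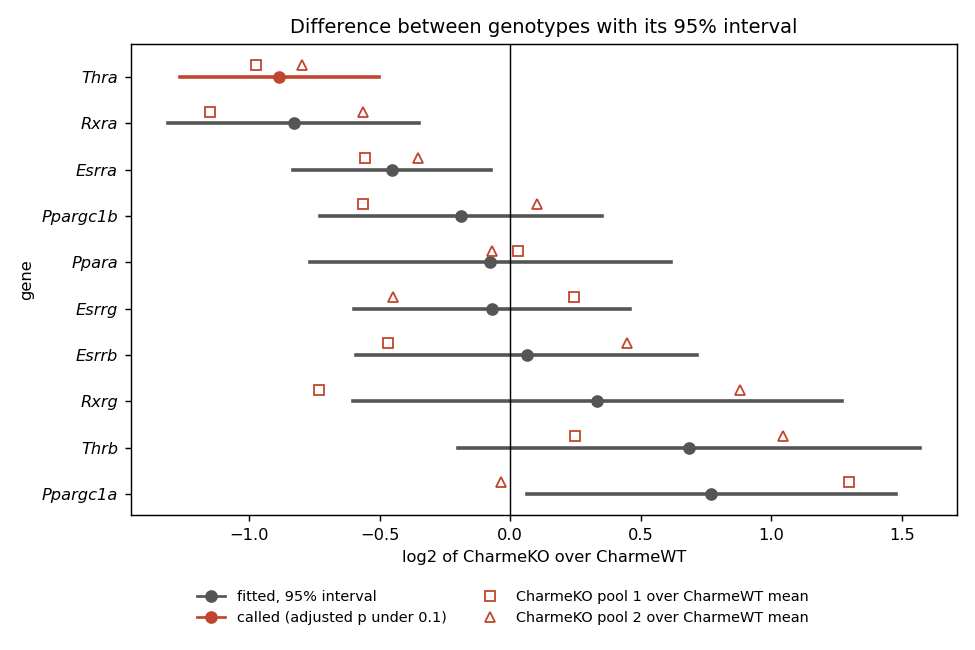
Log2 difference between CharmeKO and CharmeWT for each gene, as the fitted value with its 95% interval (filled circle and line) and as each CharmeKO pool over the CharmeWT mean (open symbols). The intervals of Thra, Rxra and Esrra lie below 0 and that of Ppargc1a above it, while for Ppargc1b, Esrrg, Esrrb, Rxrg, Ppara and Ppargc1a the 2 CharmeKO pools lie on opposite sides of 0.

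Thra encodes thyroid hormone receptor α, the main cardiac isotype and a regulator of heart rate and contractile genes (ENSMUSG00000058756, GRCm38 chr11:98740638-98769006, + strand). Its level was 61.8, 59.0 and 60.3 FPKM in CharmeWT pools 1 to 3 and 30.7 and 34.7 FPKM in CharmeKO pools 1 and 2. The CharmeWT pools lay close together and both CharmeKO pools were far below them, at 50.9% and 57.5% of the CharmeWT mean. From 60.4 ± 1.41 FPKM (n = 3) to 32.7 ± 2.82 (n = 2), Thra fell by 0.88 on the log2 scale (SE 0.171, 95% interval −1.26 to −0.50, edgeR adjusted p = 0.0521). These values rest on 2002 to 5874 counts per pool. Its exons share 263 bases with those of Nr1d1, the circadian repressor REV-ERBα, on the opposite strand. Counting used strand, and Nr1d1 was at 9.25 ± 3.64 FPKM in CharmeWT and 6.30 ± 2.30 in CharmeKO pools, which overlapped. Gene-level counts do not separate the hormone-binding α1 from the non-binding α2 isoform.

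The longest transcript of Thra is 59.8% G and C, higher than in 95.3% of genes tested, and CharmeKO pool 1 ran low for such genes. After a per-pool correction for gene length and GC content the log2 fold change was −0.57 and was no longer called (edgeR adjusted p = 0.165). Without CharmeKO pool 1 it was −0.80 and without CharmeKO pool 2 −0.98. Each of these fits leaves 1 CharmeKO pool, so no spread between CharmeKO pools enters. Leaving out CharmeWT pool 1, 2 or 3 gave −0.86, −0.90 and −0.88 with edgeR adjusted p = 0.205, 0.128 and 0.304. Without mitochondrial and salivary gland genes the log2 fold change of Thra was −0.89 (edgeR adjusted p = 0.0504).

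The other thyroid hormone receptor, Thrb, the β isotype that predominates in liver and pituitary, was near the limit of detection. It had 34, 21 and 42 counts in CharmeWT pools and 27 and 74 in CharmeKO pools, or 0.252, 0.181 and 0.324 FPKM against 0.292 and 0.506. The groups overlapped and the log2 fold change was 0.68 (SE 0.396, 95% interval −0.20 to 1.57, edgeR adjusted p = 0.374). The summed level of both receptors went from 60.6 ± 1.45 FPKM (n = 3) to 33.1 ± 2.97 (n = 2), which was 54.6% of the CharmeWT level. Thrb took 0.415% ± 0.114 of that sum in CharmeWT and 1.19% ± 0.351 in CharmeKO pools.

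Neither of the RXR genes among the 10, which encode dimer partners of these receptors, was called. Rxra, the RXR isotype whose loss is known to cause thin ventricular walls in mouse embryos (chr2:27676440-27762957, + strand), was at 14.3, 16.1 and 17.4 FPKM in CharmeWT pools and 7.16 and 10.8 FPKM in CharmeKO pools. Both CharmeKO pools were below every CharmeWT pool, and CharmeKO pool 1 was the lower, at 44.9% of the CharmeWT mean against 67.5% for pool 2. The log2 fold change was −0.83 (SE 0.215, 95% interval −1.31 to −0.35) and missed the threshold (edgeR adjusted p = 0.117). It passed with the likelihood ratio test (adjusted p = 0.0274) and with DESeq2 (adjusted p = 0.0175), and with the length and GC correction at −0.59 (edgeR adjusted p = 0.0902). With 1 CharmeKO pool left, it was −1.16 without CharmeKO pool 2 and −0.57 without CharmeKO pool 1. The 2 windows printed above are those matched to it in RefSeq, while GENCODE M21 lists 6 transcripts for the gene. Gene-level counts do not tell its starts apart.

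Rxrg, the isotype of skeletal and cardiac muscle, had 1.48, 1.5 and 1.32 FPKM in CharmeWT pools and 0.864 and 2.64 FPKM in CharmeKO pools. The CharmeKO pools lay on either side of the CharmeWT range, and the log2 fold change of 0.33 (SE 0.419, edgeR adjusted p = 0.686) became −0.74 without CharmeKO pool 2. That pool also held the highest sums of adipocyte markers and of the 8 skeletal muscle markers, the latter at 47.3 CPM against 5.05 to 6.23 CPM in CharmeWT pools and 16.7 CPM in CharmeKO pool 1. The part of other tissue in the Rxrg value was not tested. Rxrb, which is not one of the 10, was at 20.9 ± 0.444 FPKM in CharmeWT and 14.0 ± 3.87 in CharmeKO pools, with a log2 fold change of −0.57 (edgeR adjusted p = 0.197). The 3 RXR genes summed to 38.2 ± 1.38 FPKM in CharmeWT and 24.7 ± 7.67 in CharmeKO pools, or 64.6% of the CharmeWT level.

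None of the 3 estrogen-related receptors was called. Esrra (chr19:6910977-6921813, − strand), the constitutively active receptor of mitochondrial genes, was at 59.2, 61.5 and 65.1 FPKM in CharmeWT pools and 42.1 and 48.4 FPKM in CharmeKO pools. The groups did not overlap, and the CharmeKO pools held 67.9% and 78.2% of the CharmeWT mean. The log2 fold change of −0.45 (SE 0.169, 95% interval −0.83 to −0.07) was not called (edgeR adjusted p = 0.214). It was not called under any alternative that kept both CharmeKO pools. With 1 CharmeKO pool left, it was −0.57 without CharmeKO pool 2 and −0.35 without CharmeKO pool 1. Its exons share 73 bases with Trmt112 on the opposite strand and 91 with the microRNA gene Mir6990 on the same strand.

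Esrrg, the isotype known to be needed for the perinatal metabolic switch, was at 4.74, 5.87 and 5.42 FPKM in CharmeWT pools and 6.31 and 3.90 in CharmeKO pools. Esrrb, better known from embryonic stem cells, was at 1.84, 2.45 and 2.22 FPKM in CharmeWT pools and 1.56 and 2.94 in CharmeKO pools. In both genes the CharmeKO pools enclosed the CharmeWT range, with pool 1 the higher for Esrrg and pool 2 the higher for Esrrb. The log2 fold changes were −0.07 (SE 0.236, 95% interval −0.60 to 0.46) for Esrrg and 0.06 (SE 0.293, 95% interval −0.59 to 0.72) for Esrrb. With the Esrra length of the deposited FPKM, the summed level of the family was 69.4 ± 3.50 FPKM in CharmeWT and 52.6 ± 3.78 in CharmeKO pools, 75.8% of the CharmeWT level.

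Ppara itself did not differ by more than the spread between pools. It was at 1.61, 2.67 and 3.18 FPKM in CharmeWT pools and at 2.44 and 2.28 FPKM in CharmeKO pools, which fell inside the CharmeWT range. The log2 fold change was −0.08 (SE 0.309, edgeR adjusted p = 0.911), with a 95% interval from −0.77 to 0.61. Pparg, the adipocyte PPAR, was at 3.14, 2.40 and 2.52 FPKM in CharmeWT and 3.77 and 8.20 FPKM in CharmeKO pools, highest in the pool with the most adipocyte markers (log2 fold change 1.16, edgeR adjusted p = 0.136). Of the summed PPAR level Ppara took 24.8% and 13.7% in CharmeKO pools 1 and 2, and Ppard 36.8% in each.

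The PGC-1 coactivators differed between the CharmeKO pools. Ppargc1a, induced by cold, fasting and exercise, was at 13.4, 11.9 and 15.2 FPKM in CharmeWT pools, at 33.0 FPKM in CharmeKO pool 1 and at 13.1 FPKM in CharmeKO pool 2 (chr5:51454250-51567726, − strand). CharmeKO pool 1 held 244% of the CharmeWT mean and pool 2 was within the CharmeWT range at 97.1%. The fitted log2 fold change was 0.77 (SE 0.316, 95% interval 0.06 to 1.48, edgeR adjusted p = 0.243). With 1 CharmeKO pool left, it was −0.04 without CharmeKO pool 1 and 1.28 without CharmeKO pool 2. Ppargc1a has the lowest GC content of the 10 genes, 41.7%, and CharmeKO pool 1 ran high for genes of low GC content. With the length and GC correction the log2 fold change was 0.48 (edgeR adjusted p = 0.351).

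Ppargc1b, its paralog with a similar set of partners, went the other way in the same pool. It was at 5.25, 6.0 and 5.11 FPKM in CharmeWT pools, at 3.68 in CharmeKO pool 1 and at 5.84 in CharmeKO pool 2. The log2 fold change was −0.19 (SE 0.242, 95% interval −0.73 to 0.35, edgeR adjusted p = 0.693). The third family member, Pprc1, was also lowest in CharmeKO pool 1, at 1.66 FPKM against 2.86 to 3.37 FPKM in CharmeWT pools and 3.83 FPKM in CharmeKO pool 2.

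**Figure D3:**
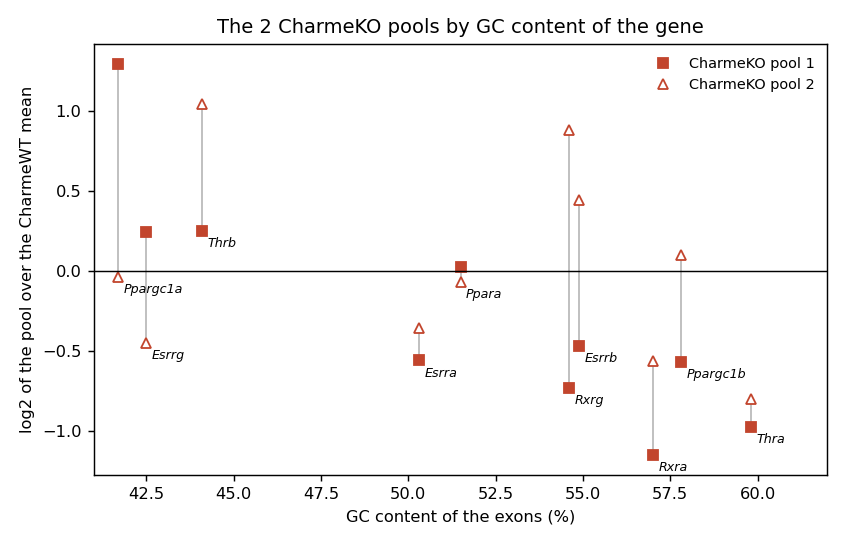
Each CharmeKO pool over the CharmeWT mean (log2) for the 10 genes, set against GC content (%). The GC content is that of each gene's longest transcript, which the axis names as the exons. CharmeKO pool 1 (filled squares) lies at 1.30 for Ppargc1a at 41.7% G and C and at −0.97 for Thra at 59.8%, and the 2 CharmeKO pools lie close together for Thra, Esrra and Ppara.

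A ratio of paired genes within a pool does not move with library scaling, so it was taken for 6 pairs. Only 10 assignments of the 5 pools to groups of 3 and 2 exist, which limits an exact two-sided p to 0.1 or more. The ratio of Thrb to Thra was 0.00407, 0.00307 and 0.00537 in CharmeWT pools and 0.00949 and 0.0146 in CharmeKO pools. The groups did not overlap, and the ratio was 2.89-fold higher in CharmeKO pools (exact permutation p = 0.1, adjusted over the 6 pairs 0.2). The ratio of Rxrg to Rxra was 0.104, 0.0932 and 0.0759 in CharmeWT and 0.121 and 0.245 in CharmeKO pools, also without overlap (1.91-fold, exact permutation p = 0.1, adjusted 0.2). The gap between 0.104 and 0.121 is small and rests on few Rxrg counts, 70 in CharmeWT pool 1 and 28 in CharmeKO pool 1. With the length and GC correction the log2 differences of these ratios went from 1.53 to 1.08 for Thrb to Thra and from 0.93 to 0.69 for Rxrg to Rxra, each with an exact permutation p = 0.2. The longest transcript of Thrb is 44.1% G and C against 59.8% in Thra.

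The other ratios of the 10 genes overlapped. Ppargc1a over Ppargc1b was 2.55, 1.99 and 2.97 in CharmeWT pools, 8.98 in CharmeKO pool 1 and 2.24 in CharmeKO pool 2 (exact permutation p = 0.4, adjusted 0.48). Esrrg over Esrra differed by 0.35 on the log2 scale (exact permutation p = 0.6) and Esrrb over Esrra by 0.44 (exact permutation p = 0.3). The myosin pair that follows thyroid hormone, Myh6 over Myh7, stood at 2.78, 6.69 and 3.51 in CharmeWT pools and at 1.07 and 2.02 in CharmeKO pools. It did not overlap and was lower by 1.45 on the log2 scale in the mean of the CharmeKO pools (exact permutation p = 0.1, adjusted 0.2).

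**Figure D4:**
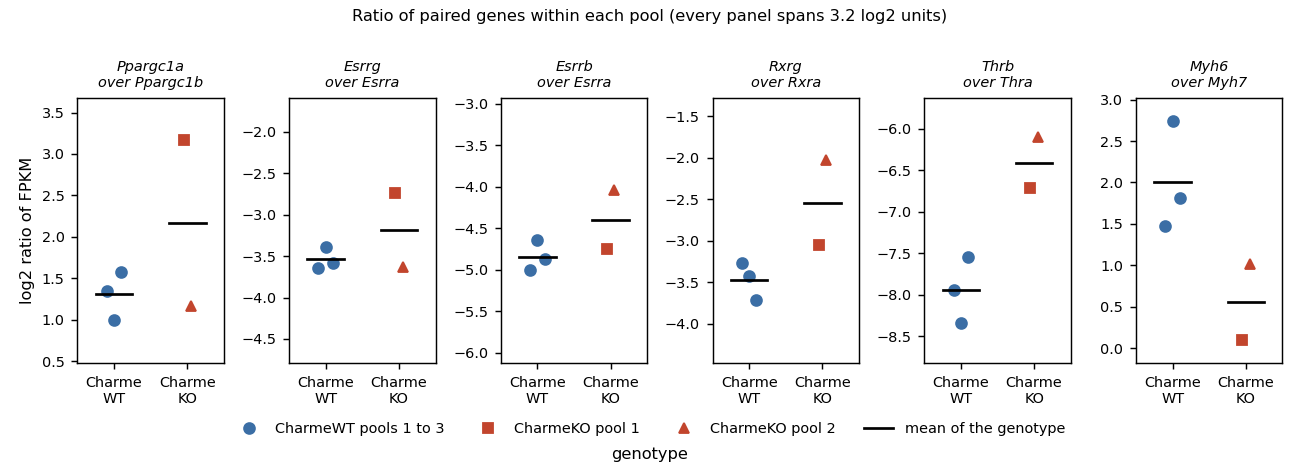
Log2 ratio of FPKM of 6 gene pairs in each pool, with bars for the mean of each genotype and the same span on every vertical axis. CharmeKO pools lie above all CharmeWT pools for Rxrg over Rxra and Thrb over Thra and below them for Myh6 over Myh7, while the first 3 pairs overlap.

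Genes that these receptors are known to control were read from lists written with earlier results of these data known. Of the PPARα targets of fatty acid handling, 7 of 31 tested were called lower and 0 higher (edgeR; 21 were lower and 1 higher at an unadjusted p under 0.05, and the likelihood ratio test and DESeq2 called 13 and 18 lower and 0 higher). Their median log2 fold change was −0.65, and both CharmeKO pools lay below every CharmeWT pool in 23 of them. The pools were separated in that direction in 18.2% of all genes. For all genes, edgeR called 0.524% lower and 1.53% higher, and at an unadjusted p under 0.05 it gave 8.01% and 10.6%. Among all genes, 2.37% were called lower with the likelihood ratio test and 3.21% with DESeq2. Pdk4, the kinase that shuts glucose carbon out of mitochondria, was at 95.8, 81.2 and 110 FPKM in CharmeWT and 36.2 and 35.8 FPKM in CharmeKO pools (log2 fold change −1.41, SE 0.194, edgeR adjusted p = 0.0336). Ucp3, a mitochondrial carrier of heart and muscle, was at 17.3, 12.9 and 17.6 FPKM against 1.99 and 2.59 FPKM (log2 fold change −2.79, SE 0.247, edgeR adjusted p = 0.00834). Both genes had CharmeKO pools that lay close together and far below the CharmeWT range.

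Among the other genes of that list, Ucp2, the acyl-CoA thioesterases Acot1 and Acot2, and the malonyl-CoA decarboxylase Mlycd had log2 fold changes of −1.83, −1.63, −1.25 and −1.03 and were called (edgeR adjusted p from 0.0497 to 0.0731). The most abundant of the list, the fatty acid binding protein Fabp3, the thiolase Acaa2 and the dehydrogenase Acadl, had log2 fold changes of −0.67, −0.58 and −0.57 and were not called. With 1 CharmeKO pool left, the list's median log2 fold change was −0.48 without CharmeKO pool 1 and −0.9 without CharmeKO pool 2. Without CharmeWT pool 1 the list had 1 gene called lower and without CharmeWT pool 3 it had 0 (15 at an unadjusted p under 0.05). All genes tested gave 2 and 0 calls in those 2 fits.

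The targets of the estrogen-related receptors and PGC-1 were not called in either direction (0 of 28 by edgeR, with 3 higher and 1 lower at an unadjusted p under 0.05, 0 by the likelihood ratio test, and 1 lower by DESeq2). Their median log2 fold change was 0.24, with 20 of 28 above 0. The adenine nucleotide carrier Slc25a4 was at 1844 ± 145 FPKM in CharmeWT and 1816 ± 423 in CharmeKO pools, and the ATP synthase subunit Atp5b at 1343 ± 108 and 1329 ± 17.2. The largest differences were 0.62 for Cox6a2, a muscle subunit of cytochrome c oxidase at 2113 FPKM in CharmeKO pool 1 and 1188 FPKM in pool 2, and −0.60 for Ogdh of the citric acid cycle. With 1 CharmeKO pool left, the list's median was 0.38 without CharmeKO pool 2 and 0.07 without CharmeKO pool 1.

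Factors of mitochondrial biogenesis and mitochondrial DNA expression gave 0 calls among 13 genes (edgeR, with 0 higher and 1 lower at an unadjusted p under 0.05, 0 by the likelihood ratio test and 1 lower by DESeq2). Their median was 0.05. Tfam, the packaging and transcription factor of mitochondrial DNA, was at 9.92 ± 0.693 FPKM in CharmeWT and 10.3 ± 2.63 in CharmeKO pools. Gabpa and Tfb2m, the other abundant members, had log2 fold changes of 0.14 and 0.31. The largest differences were 0.55 for Ssbp1 and −0.55 for Polg, the mitochondrial DNA polymerase, neither of them called.

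Of the genes known to follow thyroid hormone in cardiomyocytes, 2 of 16 were called lower and 1 higher, with a median of −0.41. Of all genes, 0.524% were called lower and 1.53% higher. The list holds both Myh6 and Myh7, which follow the hormone in opposite directions, so its median does not read as a response to the hormone. Adrb1, the main cardiac β-adrenergic receptor, was at 12.1, 14.2 and 15.0 FPKM in CharmeWT pools and 4.72 and 6.64 FPKM in CharmeKO pools (log2 fold change −1.27, SE 0.229, edgeR adjusted p = 0.0450). Ucp3, also on this list, was the other lower gene. Thrsp, a lipogenic gene, was called higher (log2 fold change 3.32, edgeR adjusted p = 0.0900), but was at 1.75 FPKM in CharmeKO pool 1 and 24.8 FPKM in CharmeKO pool 2, the pool with the adipocyte markers, against 0.910 to 1.71 FPKM in CharmeWT pools. Without CharmeKO pool 2, which left 1 CharmeKO pool, its log2 fold change was 0.38. Of the abundant members, Myh6 had a log2 fold change of −0.65, Pln, the inhibitor of the calcium pump, −0.04 and Atp2a2, the pump, −0.49, and none was called. Hcn2, a pacemaker channel, had −0.92 and was not called.

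Thyroid hormone transport and deiodination gave 1 call in 6 genes tested, where 2.05% of all genes were called. Dio2, which converts the prohormone thyroxine to the active hormone, was at 0.886, 0.886 and 0.635 FPKM in CharmeWT pools and 1.78 and 2.45 FPKM in CharmeKO pools. Both CharmeKO pools were above every CharmeWT pool (log2 fold change 1.40, SE 0.277, edgeR adjusted p = 0.0559). With the replicate block it was 1.24 and was not called (edgeR adjusted p = 0.131), and leaving out any CharmeWT pool also ended the call (edgeR adjusted p from 0.11 to 0.34). Dio2 is also known from brown fat, whose markers were higher in both CharmeKO pools, and the part of such tissue in its value was not tested. The transporters Slc7a5 and Slc16a10 had log2 fold changes of 0.24 and −0.16. Of 6 thyroid gland markers Nkx2-1 had no count in any pool, and their sum was 10 to 10.4 CPM in CharmeWT and 9.21 and 15.6 CPM in CharmeKO pools.

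The retinoid genes, which make, bind and break down RXR and retinoic acid receptor ligands, gave 0 calls among 9 (edgeR, with 3 higher and 0 lower at an unadjusted p under 0.05, and 1 higher by DESeq2 and 1 by the likelihood ratio test). Fabp5, a carrier of fatty acids and retinoic acid, was at 45.1 ± 2.10 FPKM in CharmeWT and 73.9 ± 23.6 in CharmeKO pools (log2 fold change 0.71, edgeR adjusted p = 0.149). Aldh1a1, a retinal dehydrogenase, reached 7.49 FPKM in CharmeKO pool 2 and 2.07 FPKM in pool 1, against 1.52 to 2.44 FPKM in CharmeWT pools. Aldh1a2 had a log2 fold change of −0.38.

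**Figure D5:**
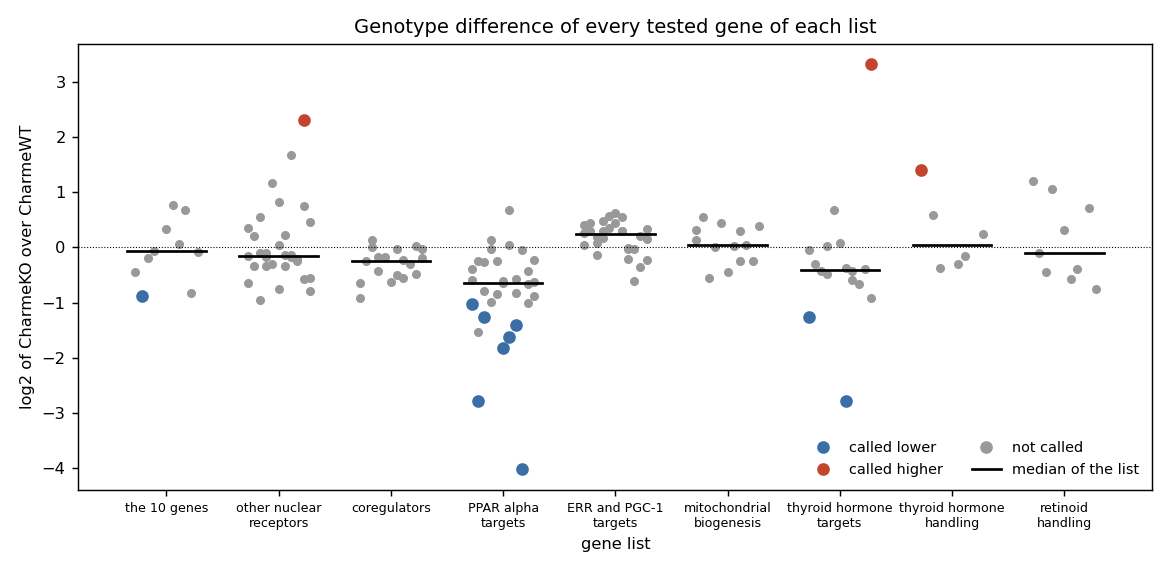
Log2 difference between CharmeKO and CharmeWT for every tested gene of each list, with called genes in colour and a bar for the list's median. The PPARα target list has 7 genes called lower and a median of −0.65, and the list of ERR and PGC-1 targets has no call and a median of 0.24.

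Among 30 other nuclear receptors tested, 1 was called higher and 0 lower (edgeR, with 3 higher and 4 lower at an unadjusted p under 0.05, with 2 higher in both the likelihood ratio test and DESeq2 and 1 and 2 lower), and the median was −0.15. The called gene was the immediate early receptor Nr4a3, at 0.179, 0.293 and 0.338 FPKM in CharmeWT pools and 2.06 and 0.681 FPKM in CharmeKO pools (log2 fold change 2.32, edgeR adjusted p = 0.0667). Without CharmeKO pool 1, which left 1 CharmeKO pool, it was 1.34. Leaving out any CharmeWT pool ended the call (edgeR adjusted p from 0.109 to 0.289). The most abundant were Nr2f6, Nr1h2 and Rxrb, with log2 fold changes of −0.18, −0.10 and −0.57. Of 18 coactivators and corepressors 0 were called (edgeR, with 0 higher and 5 lower at an unadjusted p under 0.05, and 2 and 3 lower by the likelihood ratio test and DESeq2), with a median of −0.24 and both CharmeKO pools below every CharmeWT pool in 10. In 18.2% of all genes both CharmeKO pools lay below every CharmeWT pool. At an unadjusted p under 0.05 (edgeR), 8.01% of all genes were lower and 10.6% higher. Calls by edgeR were 0.524% lower and 1.53% higher over all genes. The acetyltransferase Crebbp had a log2 fold change of −0.65. Perm1, a muscle regulator induced by PGC-1 and ERR, was at 28.5 ± 3.33 FPKM in CharmeWT and 21.1 ± 5.93 in CharmeKO pools, and Gps2 and Hdac3 had −0.17 and −0.03.

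The genes whose profile over the 5 pools was most like that of Thra were found among 11700 genes by the root-mean-square distance of centred log2 CPM. They were Acot7, an acyl-CoA thioesterase (distance 0.0510), the pseudogene Tpt1-ps5 (0.0591) and Mllt6 (0.0645). Acot7 was at 41.3 ± 2.87 FPKM in CharmeWT and 22.8 ± 2.78 in CharmeKO pools, and Mllt6 at 15.1 ± 0.990 and 8.49 ± 0.529. Tpt1-ps5 had 7 to 19 counts per pool and shares sequence with its parent gene, so its value is uncertain.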

How the data were processed

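Whole hearts at postnatal day 2 were measured by RNA-seq in 3 CharmeWT and 2 CharmeKO pools. The authors trimmed reads with Cutadapt and Trimmomatic, aligned them to GRCm38 with STAR and deposited raw fragment counts per gene of Ensembl release 87 on the annotated strand, for 49671 genes. They also deposited FPKM, the counts per TMM effective library size and gene length, for 14880 genes. Tool versions are not given in the sources used here. Here FPKM values were recomputed with the gene lengths that the deposited FPKM imply, and matched the deposited values. Of these lengths 2940 differ from the GENCODE M21 exon lengths, which served as an alternative. M21 gave positions and the GC content of each gene's longest transcript.

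Genes that reached 10 counts in 2 or more pools were normalized by TMM and tested with edgeR 4.0.16 (quasi-likelihood test, R 4.3.3) with Benjamini-Hochberg adjustment. Apart from the test, where the study used the likelihood ratio test, these settings are the study's. DESeq2 1.42.0, the legacy quasi-likelihood form, RLE, no filters and an adjusted p under 0.05 were alternatives. So were the replicate block, a length and GC correction (splines of 4 degrees of freedom) and both together. Mitochondrial and salivary gland genes were also left out, as was each pool. Ratios were compared by exact two-sided permutation tests, with 0.5 added to counts as an alternative. Depth was 16721055 to 21646378 counts per pool. Scripts were tested on simulated data.

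The genes and lists were chosen with earlier results of these data known. Named genes are the 10, every list gene called, and of each list the 3 most abundant and the 2 with the largest log2 fold change at a mean FPKM of at least 1. Some genes that this rule selects are not reported here. The nearest profiles were taken for Thra. Mir6990, Trmt112, Pprc1, Ppard and Nr1d1 were named as overlapping genes or family members. Each pool is a separate set of hearts, so p-values measure the spread between pools.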

Additional observations from a re-analysis of the deposited data

How the results depend on the processing

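Thra, Rxra, Esrra and Thrb kept their direction under each of 17 alternatives, but calls did not all hold. Their log2 fold changes were −0.98 to −0.57, −1.16 to −0.54, −0.57 to −0.35 and 0.19 to 0.99. An adjusted p under 0.05, no FPKM threshold and the M21 lengths alter only calls or FPKM, so they could not turn a direction. The count of the 10 genes called lower, 1 as reported, was 2 with the likelihood ratio test and with DESeq2, and 0 at an adjusted p under 0.05 and with the replicate block plus length and GC correction. It ranged from 0 to 4 with a pool left out, and the count called higher from 0 to 1. The highest of both counts came from the fit without CharmeKO pool 2. All genes tested gave 2, 188 and 0 calls without CharmeWT pools 1, 2 and 3. Of all genes, 1.53% were called higher and 0.524% lower as reported. The likelihood ratio test called 3.95% and 2.37%, and DESeq2 4.35% and 3.21%. An adjusted p under 0.05 left 0.652% and 0.0941%, and the block with length and GC correction 0.168% and 0.0134%. Over the pathway lists, 3 of 150 genes tested were called higher and 8 lower as reported. The likelihood ratio test gave 5 and 17, DESeq2 5 and 29, an adjusted p under 0.05 gave 0 and 5, and the block with length and GC correction 0 and 2. With a pool left out these ranged from 0 to 15 and from 0 to 46. Without CharmeKO pool 2, which left 1 pool assumed to vary like the CharmeWT pools, 4624 genes were called, and without CharmeWT pool 3 none (edgeR).

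Directions turned for Ppara (0.17 with the replicate block, 0.23 with block and correction, 0.14 without CharmeWT pool 3, lowest −0.31 without CharmeWT pool 1), Ppargc1a (−0.04 without CharmeKO pool 1, highest 1.28 without CharmeKO pool 2), Ppargc1b (0.01 with the length and GC correction, 0.10 without CharmeKO pool 1), Esrrb (−0.05 without CharmeWT pool 1, −0.48 without CharmeKO pool 2, 0.44 without CharmeKO pool 1), Esrrg (0.00 without CharmeWT pool 2, 0.23 without CharmeKO pool 2, −0.45 without CharmeKO pool 1) and Rxrg (−0.74 without CharmeKO pool 2, 0.88 without CharmeKO pool 1). The log2 ratios of Ppargc1a to Ppargc1b and of Esrrg to Esrra were −0.14 and −0.10 without CharmeKO pool 1, and 1.86 and 0.80 without CharmeKO pool 2. The cause was not tested.

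Equal replicate numbers are not stated to pair the pools. Deviations of same-numbered pools correlated at 0.137 and 0.078, and those of unlike-numbered pools at −0.137 and −0.078. With 2 CharmeKO pools these values mirror each other, so they do not decide on pairing. With the replicate block Thra stayed called at −0.89 (edgeR adjusted p = 0.0848). The Esrra level with M21 lengths was 35.8 FPKM. With 3 pools against 2, only large differences could pass, and the 21 to 74 counts of Thrb limit its precision.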
